A study of Mus musculus with 6 samples.

Results

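The genes of V(D)J recombination and of the end joining that completes it were examined in CD4+CD8+ double-positive thymocytes of mice carrying a Sox13 transgene and of wild-type mice. The set comprised 9 genes chosen by name, namely Rag1, Rag2, Dntt, Prkdc, Xrcc5, Xrcc6, Lig4, Xrcc4 and Atm, and every probe set annotated to one of them was used. Of these, 7 genes had a probe set, with 20 probe sets among the 25470 of the series, and Lig4 and Xrcc4 had none with a single gene symbol and were not analysed here.

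Both groups were female C57BL/6 mice, 6 weeks old: Sox13 transgenic mice, whose immature alpha-beta lineage cells express Sox13 ectopically, and wild-type littermates without the transgene. Which promoter drives the transgene is not given in the sources used here. Cells were sorted by CD4 and CD8 from thymocytes pooled from at least 2 mice, so an array reports a pool and not an animal. Each of 2 experiments held 1 transgenic and 1 wild-type sample, the first on the paired Affymetrix arrays Mu11K A and Mu11K B and the second on U74A, which gives 6 arrays in all.

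V(D)J recombination assembles antigen receptor genes from separate segments. The RAG1-RAG2 recombinase cuts the DNA beside the segments, terminal transferase (Dntt) adds untemplated nucleotides at the junctions, and non-homologous end joining seals them through the Ku proteins, the catalytic subunit of the DNA-dependent protein kinase (Prkdc) and the XRCC4-ligase IV complex. In the thymus the machinery acts first on the beta, gamma and delta loci of double-negative cells and then on the alpha locus of double-positive cells, and it is shut off after positive selection.

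Levels are scaled intensities. Each array was brought to a trimmed mean of 500, leaving out 2% of probe sets at each end, and a value not above 100 was taken as not above the floor and set to 100. On Mu11K A 3494 transgenic and 3737 wild-type values of 6508 lay above that floor, on Mu11K B 3067 transgenic and 3359 wild-type values of 6540, and on U74A 6721 transgenic and 6844 wild-type values of 12422. In both experiments the Sox13 probe sets were higher in the transgenic cells: 5951 on the transgenic Mu11K array against a wild-type value not above the floor, at least 59.5-fold higher, and 3832 in transgenic against 599.6 in wild-type cells on U74A, 6.39-fold higher. Over the tested genes the log2 ratios had an SD of 0.78 in experiment 1 and 0.33 in experiment 2, and the median range between probe sets of a gene was 0.30 in experiment 1 and 0.25 in experiment 2. In a bulk sample, fewer cells of a type and less RNA per cell cannot be told apart.

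The sequences just upstream of the transcription start are shown for the lymphoid genes Rag1, Rag2 and Dntt and for Xrcc6, which encodes Ku70 and is used for repair in most cell types, because the composition of these promoters divides the members. They are the 250 bases before the start in RefSeq (GRCm38.p6), which held 8 of the 9 genes, and Prkdc had no entry. Rag1 lies on the minus strand at chr2:101649533-101649782, Rag2 on the plus strand at chr2:101624462-101624711, Dntt on the plus strand at chr19:41029025-41029274 and Xrcc6 on the plus strand at chr15:82016119-82016368. Capitals mark E-boxes, the letters CANNTG that E proteins such as E2A and HEB can bind, and the motif reads the same on both strands.
Rag1 promoter: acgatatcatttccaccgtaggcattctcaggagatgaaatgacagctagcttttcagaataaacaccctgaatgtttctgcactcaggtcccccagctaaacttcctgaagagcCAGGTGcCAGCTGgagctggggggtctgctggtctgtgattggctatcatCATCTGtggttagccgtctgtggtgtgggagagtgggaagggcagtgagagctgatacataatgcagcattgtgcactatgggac
Rag2 promoter: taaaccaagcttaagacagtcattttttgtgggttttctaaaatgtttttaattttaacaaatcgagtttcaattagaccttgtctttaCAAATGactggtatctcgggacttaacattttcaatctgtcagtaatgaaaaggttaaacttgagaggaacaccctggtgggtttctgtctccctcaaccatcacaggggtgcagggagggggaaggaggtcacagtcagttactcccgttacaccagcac
Dntt promoter: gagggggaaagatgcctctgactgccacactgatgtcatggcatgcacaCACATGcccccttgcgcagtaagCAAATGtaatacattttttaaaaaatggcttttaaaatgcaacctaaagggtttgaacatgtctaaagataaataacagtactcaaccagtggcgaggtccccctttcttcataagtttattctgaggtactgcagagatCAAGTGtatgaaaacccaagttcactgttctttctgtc
Xrcc6 promoter: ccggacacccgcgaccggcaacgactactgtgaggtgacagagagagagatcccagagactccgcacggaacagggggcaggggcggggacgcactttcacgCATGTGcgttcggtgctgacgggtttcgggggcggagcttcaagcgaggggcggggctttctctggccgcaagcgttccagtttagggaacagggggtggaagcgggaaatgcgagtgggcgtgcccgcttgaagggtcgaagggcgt

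The Rag1, Rag2 and Dntt stretches held 3, 3 and 2 CpG dinucleotides, whereas Xrcc6 held 25. As a ratio of observed to expected CpG, Rag1 had 0.190, Rag2 0.283 and Dntt 0.185, against a median of 0.373 over the 32851 mouse promoters in the table. Xrcc5, which encodes Ku80, had 0.412. Xrcc6, Atm, Xrcc4 and the 2 Lig4 entries lay between 0.910 and 1.01, so the lymphoid-restricted members and the general repair members stood on opposite sides of the median, with Xrcc5 only just above it.

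Rag1 carried 3 E-boxes, with CAGGTG beginning 135 bases, CAGCTG beginning 128 bases and CATCTG beginning 85 bases before the start, and Rag2 carried CAAATG at 161 bases. Dntt carried CACATG at 201 bases, CAAATG at 178 bases and CAAGTG at 38 bases before the start, and Xrcc6 carried CATGTG at 148 bases. An E-box was present in 7 of the 9 member entries, but 66.2% of all promoters hold one, so its presence does not set the members apart. The letters TGTGGT, a RUNX motif searched on both strands, occurred in 1 of the 9 entries, that of Rag1, at 81 and 67 bases before the start, and in 14.0% of all promoters. The match at 81 bases overlaps the E-box at 85 bases. Neither AACAAT, a SOX motif, nor CTTTGA, a TCF/LEF motif, was found on either strand in any of the 9 entries, and 9.42% and 13.8% of all promoters hold them. A match or its absence describes these letters in this window only.

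Within the recombinase, Rag2 was clearly lower in the transgenic cells of experiment 1 and near the wild-type value in experiment 2, and Rag1 showed a smaller difference. Rag1 encodes the subunit with the DNA-cutting site. On Mu11K A, Rag1 read 7299 in transgenic and 10728 in wild-type cells, 1.47-fold lower. On U74A its main probe set read 11709 in transgenic and 12724 in wild-type cells, 1.09-fold lower. The transgenic value was the lower one in both experiments, by a log2 ratio of -0.56 in the first and -0.12 in the second. Of the 3349 probe sets measured on Mu11K A, 790 (23.6%) had a ratio as low as that of Rag1 or lower. A second, dim Rag1 probe set on U74A read 165.6 in transgenic cells and was not above the floor in wild-type cells, at least 1.66-fold higher. The dim probe set pointed the other way from the main one, so the mean of the 2 in experiment 2, a log2 ratio of 0.30, rests on it.

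Rag2 encodes the partner of Rag1, which directs the recombinase to chromatin marked as active. On Mu11K A it read 459.8 in transgenic and 1871 in wild-type cells, so the transgenic level was 24.6% of the wild-type level, 4.07-fold lower. On U74A it read 2119 in transgenic and 2008 in wild-type cells, 1.06-fold higher. The wide gap of experiment 1 was therefore absent from experiment 2. On Mu11K A, 33 of 3349 probe sets (0.985%) had a ratio as low or lower, which places Rag2 near the bottom of that array. The Rag2 probe sets on Mu11K A and U74A derive from the same sequence record, as do those of Rag1, and the log2 ratios they gave were -2.02 and 0.08 for Rag2. The ratio of experiment 1 minus that of experiment 2 was thus -2.10 for Rag2, and 48 of the 3237 genes tested in both (1.48%) differed as much or more.

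**Figure D1:**
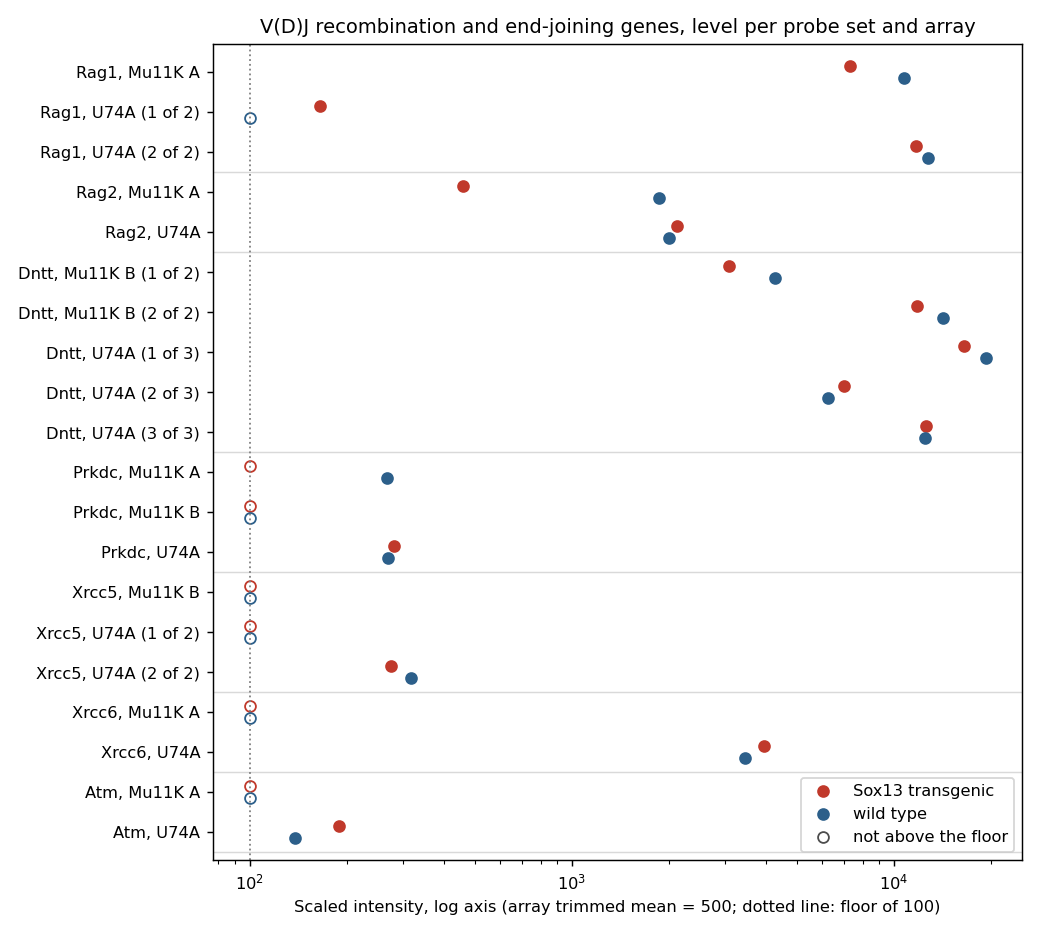
Scaled intensity (log axis) of each of the 20 probe sets of the 7 measured genes, in Sox13 transgenic (red) and wild-type (blue) cells, one point per array; open points at the dotted line are not above the floor of 100. The 2 points are far apart for Rag2 on Mu11K A, at 459.8 transgenic and 1871 wild type, and close together for Rag2 on U74A and for Dntt.

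Dntt, the template-independent polymerase that diversifies junctions, differed little between the genotypes. Its probe sets on Mu11K B read 3069 in transgenic and 4275 in wild-type cells, 1.39-fold lower, and 11825 in transgenic and 14152 in wild-type cells, 1.20-fold lower. On U74A, 1 probe set was lower in transgenic cells, with 16488 against 19262 in wild-type cells. Another was higher, with 6992 in transgenic against 6225 in wild-type cells, and the third was level, with 12537 in transgenic and 12495 in wild-type cells. The probe sets thus agreed in direction on Mu11K B and not on U74A. Their log2 ratios spanned 0.39 on U74A, and 29.0% of the 746 genes with several measured probe sets spanned as much.

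The kinase and the Ku subunits sense and hold the cut ends. Prkdc was not above the floor in transgenic cells on Mu11K A and read 266.7 in wild-type cells, at least 2.67-fold lower. A second Prkdc probe set, on Mu11K B, was not above the floor in either genotype, and on U74A the gene read 281.1 in transgenic and 268.8 in wild-type cells, 1.05-fold higher. Prkdc therefore entered experiment 1 only through its wild-type value. In experiment 2 the gene was above the floor in both genotypes.

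Xrcc5 was measured on U74A alone, with 275.3 in transgenic and 316.5 in wild-type cells, 1.15-fold lower. Its other U74A probe set and its Mu11K B probe set were not above the floor in either genotype. Xrcc6 was likewise measured on U74A alone, with 3950.45 in transgenic and 3445 in wild-type cells, 1.15-fold higher. The 2 Ku subunits, which work as a pair, thus had ratios of opposite sign and similar size in a single pair of arrays. Atm, the kinase that senses breaks and holds the ends together during recombination, read 188.7 in transgenic and 138.2 in wild-type cells on U74A, 1.37-fold higher, and was not above the floor in either genotype on Mu11K A. Of 6456 U74A gene probe sets, 825 (12.8%) had a ratio as far from 0 as that of Atm.

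The question the design poses, whether Sox13 shifts these genes, could be tested across both experiments for 4 members. The test was limma's moderated test of the mean log2 ratio against 0, with 3237 genes tested together and Benjamini-Hochberg adjustment. Across those genes 0.154% were called higher and 0% lower at an adjusted p of 0.05. None of the 4 members was called in either direction. Without pairing the arrays of an experiment, limma called 0 of the 3237 genes, and Sox13 itself had an adjusted p of 0.999. That setting therefore says nothing about the members. At an unadjusted p under 0.05, 3.92% of the genes were lower, and Rag2 was the 1 member among them. Rag2 was among them in 4 of the 10 settings run, and not with a floor of 50, no filter, median scaling, cyclic loess, the brightest probe set or no pairing.

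Rag2 had a mean log2 ratio of -0.97 ± 0.45 (limma SE, n = 2 experiments), with a 95% interval from -1.94 to -0.01 and an adjusted p of 0.774 in limma, and it was lower in 1 of 2 experiments. Counting Rag2 itself, 199 tested genes had an unadjusted p as small or smaller. Over the alternative processing settings the adjusted p of Rag2 ranged from 0.509 to 0.999. Prkdc had a mean of -0.68 ± 0.39 (limma adjusted p = 0.803), with an interval from -1.53 to 0.18. Dntt was at -0.19 ± 0.34 (limma adjusted p = 0.947, interval -0.93 to 0.54) and Rag1 at -0.13 ± 0.36 (limma adjusted p = 0.975, interval -0.90 to 0.65). No member passed the test, and the intervals of Rag1 and Dntt leave room for a change down to -0.90 and -0.93. Nothing in the labels states that pools of the 2 experiments came from separate cohorts, so the p-values do not measure the spread between animals. They rest on the spread between these 2 ratios, drawn strongly toward a variance shared by the tested genes (limma prior df of 12.1).

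**Figure D2:**
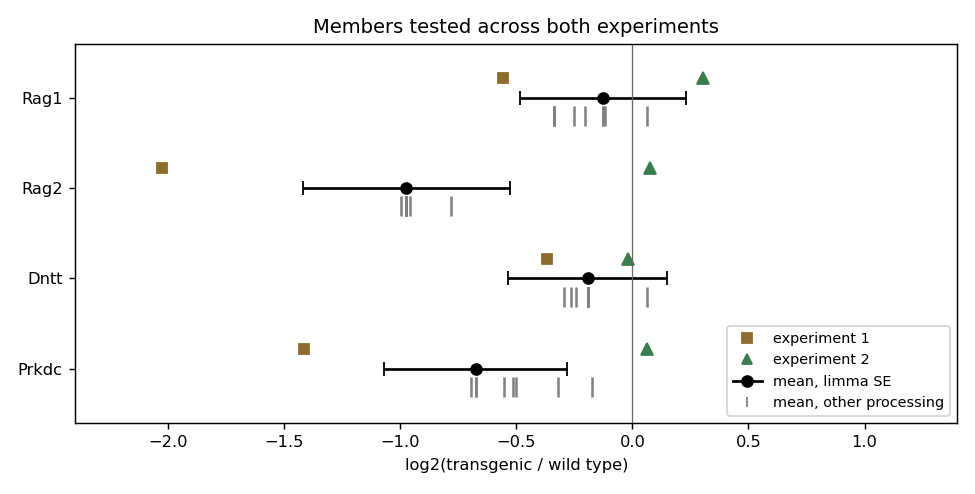
Log2 ratio of transgenic over wild type for the 4 members tested in both experiments, with squares for experiment 1, triangles for experiment 2, circles with bars for the mean and its limma SE, and grey ticks for the mean under other processing. Rag2 and Prkdc are spread widest, with experiment 1 at -2.02 and -1.42 and experiment 2 at 0.08 and 0.06.

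Within experiment 1, all 4 measured members were lower in transgenic cells (3 of 4 under median scaling, where Dntt was at 0.09), with a median log2 ratio of -0.99, and the median over all 3927 measured genes was -0.07, with 2138 lower. A 2-fold lower level was found for 2 of the 4, Rag2 and Prkdc, where 11.7% of all genes were 2-fold lower, and for 0 a 2-fold higher level, where 5.25% of all genes were. Prkdc passed the floor only through the group in which it was higher, so these counts are a description. With the filter on dim probe sets removed the median was -0.37. In experiment 2, 5 of 7 measured members were higher and 2 lower, with a median of 0.08 against -0.03 over 5377 genes. No member was 2-fold higher or 2-fold lower there, where 0.855% and 0.446% of all genes were. The low median of experiment 1 thus rested on Rag2 and Prkdc, and it was -0.56 over the members above the floor in both genotypes.

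**Figure D3:**
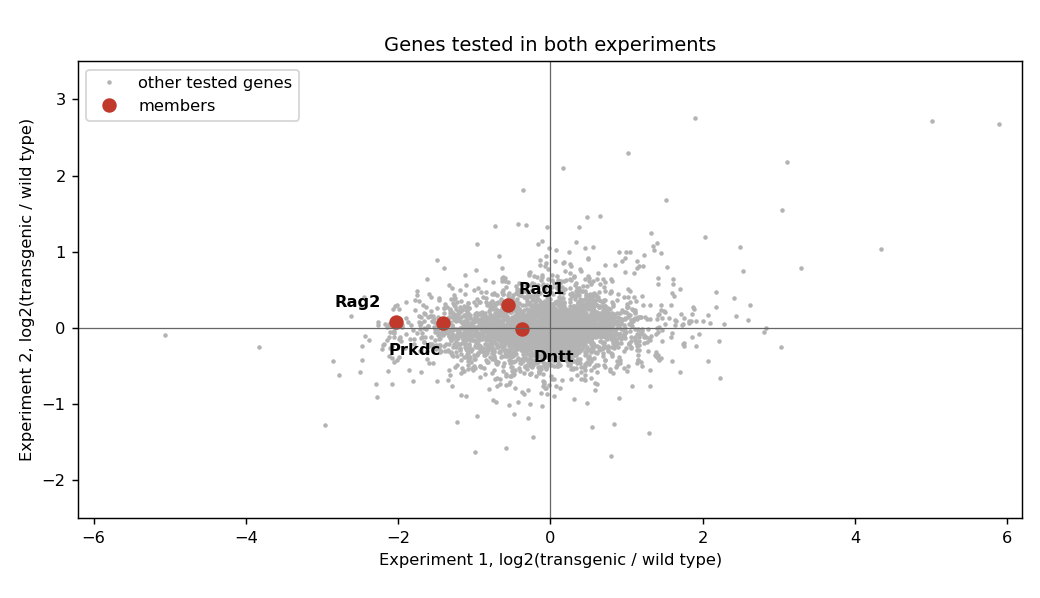
Log2 ratio of transgenic over wild type in experiment 2 (vertical axis) against experiment 1 (horizontal axis) for the 3237 genes tested in both, with the 4 members in red and the others in grey. The 4 members sit left of the vertical zero line at this scaling and near the horizontal one, with Rag2 farthest left at -2.02.

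The combination lower in experiment 1 and higher in experiment 2 was shown by 3 of the 4 members, Rag1, Rag2 and Prkdc, and by 736 of all tested genes (22.7%). Rag1 counts here only through its dim U74A probe set. Rag2 belonged to 43 genes (1.33%) that were at least 4-fold lower in experiment 1, and 36 of these had a log2 ratio within 0.5 of 0 in experiment 2. The genes whose 2 ratios came closest to those of Rag2, of 2807 genes that exceeded the floor on each of their arrays, were Hnrnph2 at -1.97 and 0.11, Ncl at -1.95 and 0.03, and Tia1 at -2.12 and 0.05. Likeness was the distance between the 2 pairs of log2 ratios, and 19 genes lay within 0.25 of Rag2. For Rag1, Nfkbiz, Nmi and Zfand5 were closest and 137 genes lay within 0.25. Rag1 was placed there at -0.56 and 0.30, which includes its dim U74A probe set. Its experiment 2 ratio was -0.12 without that probe set, so these neighbours rest on it. With only 2 values a gene, such closeness is a description of these arrays.

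Signs of RNA quality are set beside the Rag2 difference. The 3'/5' ratio of the actin control, a sign of RNA integrity, was 1.08 in transgenic and 1.32 in wild-type cells on Mu11K B, and 1.36 in transgenic and 1.58 in wild-type cells on U74A. For the Gapdh control it was 1.18 in transgenic and 0.870 in wild-type cells on Mu11K B, and 0.766 in transgenic and 0.792 in wild-type cells on U74A. On Mu11K A, the array that holds Rag1 and Rag2, the transgenic values were 1.09 and 1.00, and no wild-type value was used. The part of RNA integrity in the Rag2 difference was not tested.

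Markers of the sorted population itself were present. All 11 double-positive identity genes with a level in experiment 1 and all 12 in experiment 2 were above the floor in both genotypes, with median log2 ratios of -0.00 and -0.04 (0.44 and 0.01 under median scaling). Cd4 read 7854 in transgenic and 7876 in wild-type cells on the Mu11K arrays, and Cd8a read 15638 in transgenic and 16859 in wild-type cells. Cd28, a costimulatory receptor in that list, was an exception, with 173.5 in transgenic and 1256 in wild-type cells in experiment 1 and 963.5 in transgenic and 1302 in wild-type cells in experiment 2. Its adjusted p was 0.521 in limma and 0.0488 under median scaling.

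Mature single-positive markers were higher in experiment 1, a stage at which Rag genes are off. Of the 8 with a level there, 7 were higher in transgenic cells with a median log2 ratio of 1.05, and their summed level was 11911.5 in transgenic and 6605 in wild-type cells. In experiment 2, 5 of 7 were higher with a median of 0.15, and the sums were 12106 in transgenic and 11329 in wild-type cells. H2-K1, a class I antigen-presenting molecule, had log2 ratios of 1.63 and 0.41, and Socs3, an inhibitor of cytokine signalling, 3.29 and 0.79. Emb, an adhesion molecule in the same list, was lower in both, with -0.99 and -0.53. Il7r, S1pr1 and Zbtb7b were not above the floor in either genotype in experiment 1, nor were Ccr7, Klf2, S1pr1 and Zbtb7b in experiment 2. None of the 6 tested markers of that stage passed the limma test, though Socs3 passed under quantile normalization (limma adjusted p = 0.0128) and median scaling (limma adjusted p = 2.19e-05), and their part in the Rag2 difference was not tested.

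Double-negative progenitor markers had a median of 0.82 over 8 genes in experiment 1, with 5 higher and 3 lower. In experiment 2 the median was 0.30 over 7 genes, with 4 higher and 3 lower. Sums over the 12 on the arrays were 12349.6 in transgenic and 3259 in wild-type cells in experiment 1. In experiment 2 they were 6862 in transgenic and 4722 in wild-type cells. Of the 5 tested, Dtx1, a Notch target, rose, with log2 ratios of at least 5.01 and of 2.72 (limma adjusted p = 0.004). Dtx1 did not pass with a floor of 50, with no filter, with the brightest probe set or with no pairing, where its adjusted p in limma lay between 0.0501 and 0.999. Notch1, with ratios of 2.63 and 0.30, passed under median scaling alone (limma adjusted p = 0.00775), and Notch3 (1.42 and 0.65) and Ptcra (1.61 and 0.58) were higher in both experiments without passing. Cd34, Kit and Gata2 were lower in experiment 1, with ratios of -0.74, -0.21 and -0.03. Hes1, Flt3 and Gata2 were lower in experiment 2, with -0.32, -0.21 and -0.13. Kit was not above the floor in either genotype in experiment 2, and neither Cd44 nor Il2ra was in either experiment. B-lineage markers, whose progenitors use the same recombinase, had medians of 0.58 over 7 genes and 0.47 over 10. Their sums were 12762 in transgenic and 7152 in wild-type cells in experiment 1 and 4922 in transgenic and 3730.03 in wild-type cells in experiment 2. The class II genes of that list were higher in both experiments without passing, with ratios of 1.34 and 1.08 for H2-Aa, 1.23 and 0.95 for Cd74 and 1.59 and 0.46 for H2-Ab1. Vpreb1, a surrogate light chain of B-cell progenitors, read 290.0 in transgenic and 274.6 in wild-type cells in experiment 1, and Ebf1 and Cd22 were not above the floor in either genotype in either experiment. Myeloid markers had medians of -0.12 over 7 genes and 0.61 over 8, erythroid markers 0.06 over 7 and -0.03 over 5, and stromal and epithelial markers -0.66 over 4 and -0.60 over 3. In experiment 1 the myeloid median was 0.21 under quantile normalization, 0.34 under median scaling and 0.08 under cyclic loess, and the stromal one 0.05 under quantile normalization and 0.06 under median scaling. Summed levels in experiments 1 and 2 were 3849 and 2199 in transgenic against 4012 and 1761 in wild-type cells for myeloid markers. For stromal ones they were 1844 and 1310.09 in transgenic against 3300.16 and 1535 in wild-type cells. The stromal sums covered 10 and 11 genes, most of them not above the floor. The erythroid list, with sums of 2869 and 3602 in transgenic against 1403 and 2451 in wild-type cells, had 2 genes past the limma test. These were the globins Hba-a1 (log2 ratios of 1.90 and 2.76) and Hbb-b2 (3.04 and at least 1.54). The other 3 tested genes of that list were lower in both experiments, namely Car2 (-0.98 and -1.64), Gata1 (-0.52 and -0.07) and Tfrc (-0.70 and -0.03). Transgenic values of these 3 were not above the floor in experiment 1. The myeloid and B-cell lists had no gene past the test. Ctss, in the myeloid list, read 404.1 in transgenic and 162.0 in wild-type cells in experiment 1. In experiment 2 it read 570.3 in transgenic and 241.0 in wild-type cells (limma adjusted p = 0.431). Of the 5 tested myeloid genes, 1 was higher in both experiments, 1 lower in both and 3 lower in experiment 1 and higher in experiment 2. Neither globin passed with a floor of 50, with no filter or with no pairing (limma adjusted p between 0.0986 and 0.999), and Hbb-b2 did not pass with a floor of 200, under cyclic loess or with the brightest probe set either. How far other cells contributed to the member levels was not tested.

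The other genes of end joining and break sensing showed no common direction. Of 23 listed, 15 had a probe set. In experiment 1, 5 of 11 with a level were higher and 6 lower, with a median of -0.19, and in experiment 2, 9 of 13 were higher and 4 lower, with a median of 0.16. None of the 10 tested passed in limma. Lig1, the replicative DNA ligase, read 1502 in transgenic and 1182 in wild-type cells in experiment 1, and 1392 in transgenic and 969.8 in wild-type cells in experiment 2, so the genotypes kept the same order in both. Its limma adjusted p was 0.878. Xrcc1, a scaffold of single-strand break repair, had log2 ratios of 0.33 and 0.25, and Kmt5a, a histone H4 methyltransferase, 0.37 and 0.15. Polm, a polymerase of end joining related to Dntt, was lower in transgenic cells in both, with ratios of -0.42 and -0.17.

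The MRN complex binds broken ends and activates ATM. Its subunit Rad50 followed the pattern of Rag2, with 112.6 in transgenic and 371.0 in wild-type cells in experiment 1, and 790.4 in transgenic and 707.4 in wild-type cells in experiment 2 (limma adjusted p = 0.796). Mre11a, the nuclease of the complex, had ratios of -0.64 and 0.31. Hmgb2, a DNA-bending protein that assists RAG cleavage in vitro, read 7529 in transgenic and 10824 in wild-type cells in experiment 1, and 1112 in transgenic and 874.0 in wild-type cells in experiment 2. Rad50, Mre11a and Hmgb2 were each lower in experiment 1 and higher in experiment 2, as Rag2 was. This order of signs was shown by 4 of the 10 tested genes of the list and by 22.7% of all tested genes. In experiment 1 the log2 ratios of Mre11a and Hmgb2, -0.64 and -0.52, were much smaller in size than the -2.02 of Rag2.

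Homologous recombination genes, the other main route of break repair, had 5 of 6 lower in experiment 1 (median -0.32) and 5 of 8 higher in experiment 2 (median 0.13). Under median scaling 3 of 6 were lower in experiment 1. None of the 5 tested passed in limma. Rad52, a recombination mediator, was lower in transgenic cells in both, with 289.4 against 482.2 in wild-type cells and 454.4 against 554.1 in wild-type cells (limma adjusted p = 0.863). Among genes of the ATM and p53 response, 5 of 6 were lower in experiment 1 (median -0.41) and 7 of 10 in experiment 2 (median -0.05), and 0 of 6 passed in limma. Over all genes 54.4% were lower in experiment 1 and 54.6% in experiment 2. Under median scaling 3 of 6 and 5 of 10 of the response genes were lower, so the lean was absent at that scaling. Ccng1, a cyclin induced by p53, read 139.5 in transgenic and 580.1 in wild-type cells in experiment 1, and 277.3 in transgenic and 285.7 in wild-type cells in experiment 2 (limma adjusted p = 0.769). Mdm2, the ubiquitin ligase that restrains p53, had ratios of -1.14 and -0.06. Ccng1 and Mdm2 were thus much lower in the first experiment and level in the second. The rest of the list did not share this fall. Cdkn1a had ratios of -0.11 and -0.02, Gadd45a -0.28 and 0.13, Chek1 -0.55 and 0.45, and Btg2 0.54 and -0.21. The summed level of the list in experiment 1 was 5774 in transgenic and 5521 in wild-type cells.

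Transcription factors tied to Rag control were lower in transgenic cells more often than higher in both experiments. Of 14 with a level in experiment 1, 10 were lower (median -0.43), and of 17 in experiment 2, 14 were lower (median -0.12), where 2138 of all 3927 genes and 2938 of all 5377 genes were lower. Under median scaling 8 of 14 and 11 of 17 were lower. Of the 14 tested, 7 were lower in both and 0 higher in both. A further 3 were lower in experiment 1 and higher in experiment 2, and 4 the reverse. The share of all tested genes lower in both was not counted, so these counts are a description only. None of the 14 passed the test, though 2 had an unadjusted p under 0.05 in limma. Tcf12, which encodes the E protein HEB, read 824.8 in transgenic and 2223 in wild-type cells in experiment 1, and 6472 in transgenic and 8007 in wild-type cells in experiment 2. Its mean log2 ratio was -0.87 ± 0.37 (limma SE, adjusted p = 0.769). Tcf4, the E protein E2-2, was not above the floor in transgenic cells and read 251.6 in wild-type cells in experiment 1, and it read 351.7 in transgenic and 515.5 in wild-type cells in experiment 2 (limma adjusted p = 0.723). Satb1, a chromatin organiser of double-positive thymocytes, read 6906 in transgenic and 10102 in wild-type cells in experiment 1, and 9844 in transgenic and 12489 in wild-type cells in experiment 2 (limma adjusted p = 0.872). Tcf12, Tcf4 and Satb1 were chosen for having the same sign in both experiments. Tcf3, which encodes the E protein E2A and is given after its values were seen, read 1684 in transgenic and 903.8 in wild-type cells in experiment 1, and 207.3 in transgenic and 224.5 in wild-type cells in experiment 2. The E proteins thus did not share a direction in experiment 1. Id2, an inhibitor of E proteins, had ratios of -0.34 and -0.20.

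**Figure D4:**
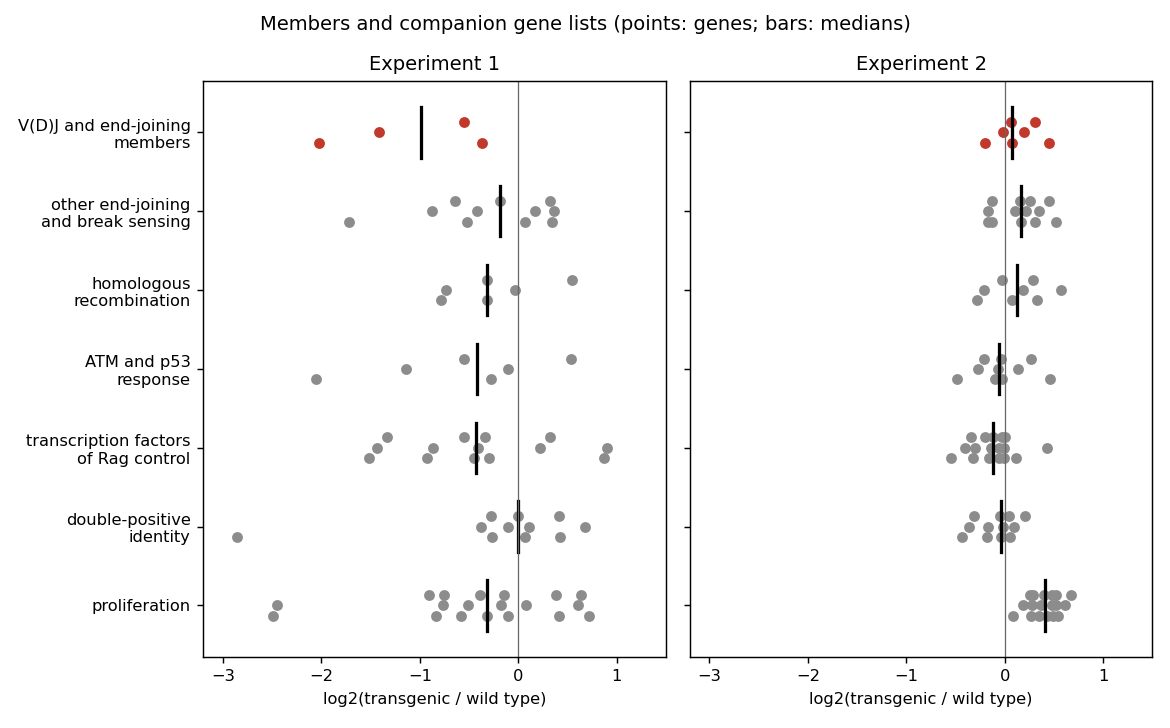
Log2 ratio of transgenic over wild type for each gene with a level in experiment 1 (left) and experiment 2 (right), by gene list, with the members in red and black bars at the medians. The medians of the members are -0.99 and 0.08 and those of the transcription factors of Rag control -0.43 and -0.12, and all 18 proliferation genes lie right of 0 in experiment 2.

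Proliferation was examined because RAG2 protein is degraded as cells enter S phase. The arrays measure RNA, so they do not show that control of the protein. In experiment 1, 13 of 19 proliferation genes were lower in transgenic cells (median -0.32), and in experiment 2 all 18 with a level were higher (median 0.41). Summed levels were 35088 in transgenic and 45575 in wild-type cells in experiment 1, and 56806 in transgenic and 43999 in wild-type cells in experiment 2. Mki67 and Top2a, the only 2 of the 19 that were 2-fold lower in experiment 1, had ratios of -2.49 and 0.28 and of -2.45 and 0.40. These 2 shared the pattern of Rag2. Of the 18 tested, 12 were lower in experiment 1 and higher in experiment 2, where 22.7% of all tested genes were. The other 6 were higher in both, among them Mcm5 (0.72 and 0.29), Mcm7 (0.64 and 0.37), Plk1 (0.38 and 0.52) and Tk1 (0.41 and 0.48). None of the 18 tested passed in limma, and the part of proliferation in the Rag2 difference was not tested. Under median scaling, which moved the median ratio of the tested genes up by 0.34 in experiment 1, the medians of the proliferation and the other end-joining lists in that experiment were 0.14 and 0.21, both below the all-gene median of 0.27.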

How the data were processed

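Total RNA of sorted thymocytes was labelled and hybridised to 6 Affymetrix arrays. The deposited values are Affymetrix intensities that the authors computed with Microarray Analysis Software, versions 4 and 5 per the series text, and which version made which array is not given in the sources used here. Negative values (17.35% to 29.2% of each Mu11K array, 0% on U74A) were kept in the trimmed mean and then set to the floor.

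Control probe sets were left out, and intensities were multiplied so that the 2% trimmed mean was 500 on every array, with a floor of 100. Probe sets of a gene above the floor in at least 1 genotype were averaged as log2 ratios. Mu11K A and B counted as 1 replicate, so n is 2 experiments, and the array number limits the precision. The ratio within an experiment is the pairing, since the genotypes share no array and the 2 array generations no scale. The test was limma 3.58.1 in R 4.3.3, checked on simulated data. Changed genes in that simulation had normal noise and the same shift in both experiments. It therefore does not cover a gene such as Rag2, whose ratios differed between the experiments. Probe sets with 1 gene symbol in the platform annotation were used (5530, 2001 and 10833 on Mu11K A, Mu11K B and U74A), and no symbol needed updating.

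Alternatives were floors of 50 and 200, no filter, a filter requiring both genotypes, quantile, median and cyclic loess normalization, the brightest probe set per gene, no pairing, and each experiment left out. The members and lists were chosen with earlier results of these data known. Beyond the members and Sox13, genes are named if they passed the test, differed 2-fold in one direction in both experiments, were among the 4 largest of their list with the same sign in both, or shared the pattern of Rag2, and by likeness the 3 nearest. Not all such genes are printed. Cd34, Kit, Hes1 and Flt3 are given because they went the other way from the Notch genes of their list. Chek1, Gadd45a and Btg2 are given so that all tested genes of the ATM and p53 response are shown. Cd4, Vpreb1 and Ebf1 are given as defining markers, and Cd22, Il7r, Kit and the other markers not above the floor for that reason.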

Additional observations from a re-analysis of the deposited data

How the results depend on the processing

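No member was called in either direction in any of the 10 settings run across both experiments, and Rag2 kept a negative mean in all of them (-0.997 to -0.78). Sox13 itself was not called with a floor of 50, no filter, the brightest probe set or no pairing (limma adjusted p from 0.0722 to 0.999). The absence of a call in those settings is therefore uninformative. Median scaling moved the median of the tested genes by 0.34 in experiment 1 and 0.05 in experiment 2. It turned the mean log2 ratios of Rag1 to 0.061, Dntt to 0.064, Hmgb2 to 0.17, Mre11a to 0.030, Cd4 to 0.072, Cd8a to 0.11 and Cd24a to 0.10, and relative to that median Rag1 and Dntt were at -0.10 and -0.10. Mre11a was at 0.020 under quantile normalization and 0.029 with a floor of 200, and Cd3d at -0.015 under quantile normalization and -0.065 under cyclic loess. For these turns the cause was not tested.

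Leaving out either experiment left a ratio with no test, from -0.56 to 0.30 for Rag1, -2.02 to 0.078 for Rag2, -1.42 to 0.065 for Prkdc, -1.72 to 0.16 for Rad50, -0.64 to 0.31 for Mre11a, -0.52 to 0.35 for Hmgb2, -0.12 to 0.90 for Tcf3, -2.49 to 0.28 for Mki67 and -2.45 to 0.40 for Top2a. With no replicate block, limma called 0 genes of 3237, against 5 with the pairing within experiments, and the members' means stayed as they were. The count of genes called was 0 with a floor of 50 (3804 tested) and with no filter (5877), 5 with a floor of 200, 2 with both genotypes above the floor, 15 under quantile normalization, 27 under median scaling, 4 under cyclic loess and 1 with the brightest probe set. With 2 ratios per gene, members not above the floor on some arrays and an SD of ratios over genes of 0.78 in experiment 1, a small difference was not detectable.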
